A study of Rattus norvegicus with 111 samples.

Results

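Insulin-like growth factors 1 and 2, encoded by Igf1 (ENSRNOG00000004517) and Igf2 (ENSRNOG00000020369), were followed through the maternal and the fetal liver of rats dosed late in pregnancy. They are 2 of the 20311 genes listed in each deposited count table and were read in 109 of the 111 libraries. Time-mated Sprague-Dawley dams (Crl:CD(SD)), about 11 to 12 weeks old when purchased, were dosed by mouth on gestational days 18 to 22 with PFO5DoA or PFO4DA, and livers were taken 2 to 4 hours after the last dose. PFO4DA and PFO5DoA are perfluoroalkyl ether carboxylic acids, and PFO5DoA is the homologue with a further difluoromethoxy unit in its chain. The controls of both chemicals received the vehicle listed for all samples, 0.5% Tween-80, at 0 mg/kg/d, and each chemical had its own controls. The assay was TempO-Seq, in which a pair of detector oligos binds each target RNA and is ligated there, and the reads of the joined oligos are counted per gene. The labels state the purpose as a comparison of dose-responsive expression in the 2 tissues.

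The column names of the tables gave the dam and not the life stage, so the stage was assigned from the values. In each dam the library whose log2(CPM + 1) profile over all genes had the higher Pearson correlation with the only library of dam 2286, labelled maternal, was taken as maternal liver and the other as fetal liver (CPM, counts scaled to a library total of 1000000). The correlation was 0.943 to 0.988 in the libraries taken as maternal and 0.861 to 0.923 in those taken as fetal. The smallest gap within a dam was 0.0524. Leaving Igf1 and Igf2 out of the profile changed the stage of 0 dams, and so did a rank correlation. Dam 2279, a PFO5DoA control, was not used, since 1 of its libraries held only 45505 counts. The maternal libraries of PFO5DoA came from 5 controls, 2 dams dosed with 0.1 mg/kg/d, 3 per dose with 0.3 or 1 mg/kg/d and 4 per dose with 3, 10 or 30 mg/kg/d. The fetal libraries came from the same dams except dam 2286 at 30 mg/kg/d, which leaves 3 at that dose. For PFO4DA both stages had 6 controls and 4 dams per dose of 0.3, 1, 3, 10, 30 or 62.5 mg/kg/d. A dam is 1 replicate. A fetal library is called a litter below, and whether it held 1 fetus or several is not given in the sources used here.

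Both genes encode small secreted peptides related to insulin that act mainly through the receptor Igf1r and drive cell growth and division. Igf2 is the growth factor of fetal life: it is strongly expressed in fetal rodent liver, is imprinted so that the paternal copy is active, and is shut down in the liver after birth. Igf1 is made by the postnatal liver under growth hormone, and the liver supplies most of the Igf1 that circulates in the adult. In the blood both are carried by Igf binding proteins, and Igf2r removes Igf2 from the circulation.

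The RefSeq sequences just before the annotated starts of the genes are shown because both genes were called lower in fetal liver at 30 mg/kg/d PFO5DoA. A part of these sequences in that fall was not tested. Each window is the 100 bases before a start in the build GRCr8, 5′ to 3′ on the strand of the gene, with any ATAAAA, a run like a TATA box, or GGGCGG, the core of a GC box, in capitals on either strand. The Igf1 window is chr7:24172432-24172531 on the plus strand, the first Igf2 window is chr1:207253981-207254080 on the minus strand, and the second is chr1:207250476-207250575 on the minus strand.
Igf1: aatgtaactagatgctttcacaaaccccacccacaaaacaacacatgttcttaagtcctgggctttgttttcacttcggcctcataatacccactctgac
Igf2, first start: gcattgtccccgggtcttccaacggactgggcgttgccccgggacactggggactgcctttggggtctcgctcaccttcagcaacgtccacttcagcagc
Igf2, second start: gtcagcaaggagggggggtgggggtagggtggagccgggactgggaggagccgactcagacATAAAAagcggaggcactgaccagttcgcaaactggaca
The second Igf2 window held ATAAAA, beginning 39 bases before the start, and the other windows did not. No window held GGGCGG. Of 33469 windows of the same length in the table, 7.52% held ATAAAA and 21.6% held GGGCGG. The windows of Igf2 were 64% and 62% G or C and that of Igf1 43%, against a median of 54% over the table. These are matches of letters, and the count tables do not say which start was used.

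Library totals lay between 7133014 and 15254965 counts in maternal PFO5DoA, between 9468837 and 14074002 in fetal PFO5DoA, between 7192246 and 11599694 in maternal PFO4DA and between 7962454 and 12189326 in fetal PFO4DA libraries. At 30 mg/kg/d PFO5DoA the labels report body weights about 17% below those of controls and fetotoxicity in 1 dam, which they do not name. The maternal library of control dam 2263 stood apart. It had the lowest correlation of all maternal libraries, 0.943, and results that rest on it are given with and without it. Dam identifiers form 2 runs per chemical, 2263 to 2277 and 2278 to 2288 for PFO5DoA and 2293 to 2307 and 2308 to 2322 for PFO4DA. The labels do not call these runs batches. PFO5DoA at 30 mg/kg/d and PFO4DA at 62.5 mg/kg/d occur only in the second run.

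Igf2 belonged to the fetal liver and Igf1 mainly to the maternal liver. Igf2 was 1398 to 6012 CPM in the 54 fetal libraries and 3.19 to 13.1 CPM in the 55 maternal ones. Within the 11 control dams the fetal level was 260 to 1293 times the maternal level of the same dam, with a median of 620. Igf1 ran the other way: it was higher in the maternal than in the fetal library of all 54 dams with both. The maternal level of Igf1 was 1.25 to 34.5 times the fetal level in the control dams, with a median of 11.3, and the lowest ratio was that of dam 2263. In counts, Igf1 had 20 to 341 per maternal and 1 to 39 per fetal library, and Igf2 had 34 to 146 per maternal and 13642 to 62109 per fetal library. Fetal Igf1 therefore had the largest counting error for its level, and both maternal genes had far fewer counts than fetal Igf2. The life stage was assigned from the values of all genes, so these ratios are a description and carry no test. Counts of different genes come from different probes, and the levels of Igf1 and Igf2 are not compared with each other.

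**Figure D1:**
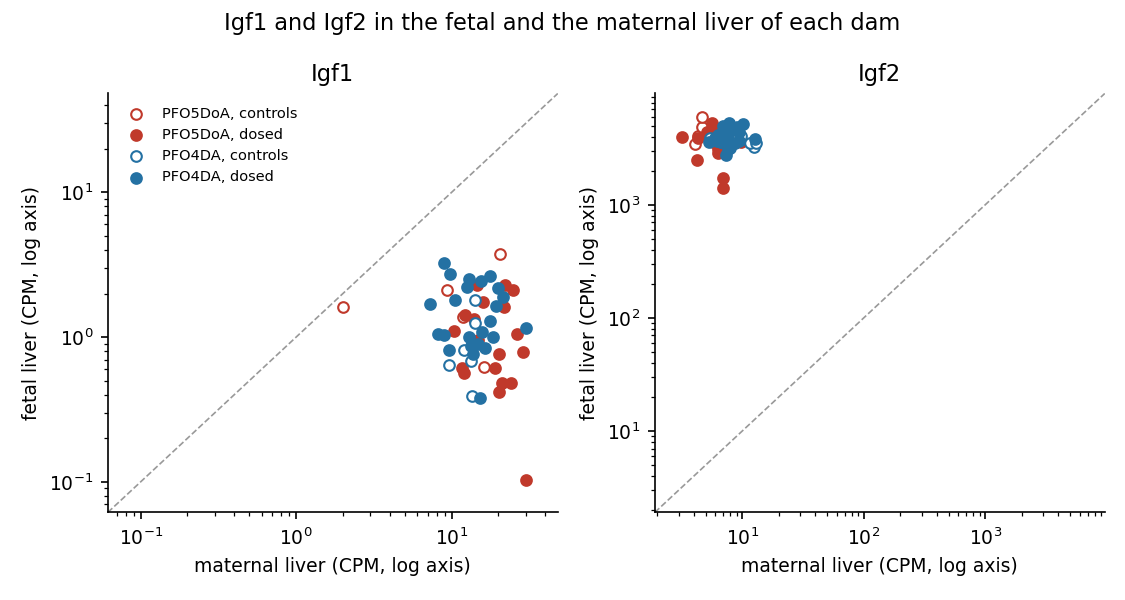
Level of Igf1 (left) and Igf2 (right) in the fetal liver (vertical, CPM, log axis) against the maternal liver (horizontal, CPM, log axis) of each of the 54 dams with both libraries; open points are controls and the dashed line marks equal levels. All Igf1 points lie below the line and all Igf2 points above it, and the Igf1 point nearest the line is control dam 2263.

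Fetal Igf2 fell with the dose of PFO5DoA. From here on levels are scaled CPM, CPM with the library total multiplied by its TMM factor. Groups are compared with the quasi-likelihood F-test of edgeR, p-values are adjusted over all genes tested by the method of Benjamini and Hochberg, and a gene is called at an adjusted p under 0.05. The 5 control litters had 3404, 3958, 4726, 4763 and 5314 scaled CPM of Igf2, a mean of 4433 ± 751 (SD, n = 5). At 30 mg/kg/d the 3 litters had 1103, 1476 and 2057 (mean 1546 ± 481, SD, n = 3), and the highest of them lay well under the lowest control. Igf2 was 2.88-fold lower, or -1.53 on the log2 scale (standard error 0.20; edgeR, adjusted p = 5.81e-06).

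Igf2 was also called lower at 10 mg/kg/d, though that call was less secure, as described below. The 4 litters had 2806, 2874, 3024 and 3130 scaled CPM (mean 2959 ± 146, SD, n = 4), on this scale a narrow group wholly below the controls. In CPM without the TMM factor the separation was not complete. Dam 2284 then had 4287, within the control range of 3423 to 6012. Igf2 was 1.51-fold lower, or -0.59 on the log2 scale (standard error 0.17; edgeR, adjusted p = 0.0237). At 3 mg/kg/d the levels of 3176, 3651, 3683 and 4227 overlapped those of the controls, with 1 litter below all of them, and the change of -0.28 was not called (edgeR, adjusted p = 0.423). At 1 mg/kg/d the litters had 3866, 4179 and 4513, and at 0.3 mg/kg/d 4181, 4769 and 5119, all within the control range. The 2 litters at 0.1 mg/kg/d, which entered no test, had 5702 and 5893 and were above every control. Over all tested doses the slope of Igf2 was -0.27 on the log2 scale per doubling of dose + 1 mg/kg/d (standard error 0.039; edgeR, adjusted p = 5.19e-06).

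Fetal Igf2 and Igf1 were called against a background in which PFO5DoA changed many fetal genes. edgeR called 0.113% of the 11509 fetal genes tested at 0.3 mg/kg/d, 2.39% at 1, 7.08% at 3, 14.7% at 10, 29.9% at 30 mg/kg/d and 36.0% in the trend. At 30 mg/kg/d a call of a single gene thus stands among 3443 called genes, 1590 higher and 1853 lower. In bulk liver, fewer cells of a type and less RNA per cell cannot be told apart. The share of counts taken by the 10 highest genes of a library was 27.6 to 38.7% in the fetal controls of PFO5DoA, 20.4 to 27.1% at 10 mg/kg/d and 14.7 to 23.1% at 30 mg/kg/d, and the part of this shift in the Igf results was not tested. With library totals alone as the scale, the median of all fetal genes at 30 mg/kg/d moved from -0.051 to 0.22. Igf2 was then lower by a log2 fold change of -1.27 at 30 mg/kg/d and was still called, whereas at 10 mg/kg/d it was -0.41 and no longer called (edgeR, adjusted p = 0.151).

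The call of Igf2 at 30 mg/kg/d held in all settings run and without any single litter, with log2 fold changes of -1.77 to -1.31 when 1 litter was left out. Within the second run of dams, which holds all litters of that dose and 2 of the controls, it was -1.48 (edgeR, adjusted p = 0.0134). The call at 10 mg/kg/d was less secure. It was lost without dam 2263 (edgeR, adjusted p = 0.0530), 2265 (0.0527), 2276 (0.0694), 2277 (0.0574), 2278 (0.0546) or 2283 (0.0501), all with changes of -0.51 to -0.59. Within the first run Igf2 at 10 mg/kg/d was -0.67 and called (edgeR, adjusted p = 0.0151), and within the second it was -0.50 (adjusted p = 0.534).

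**Figure D2:**
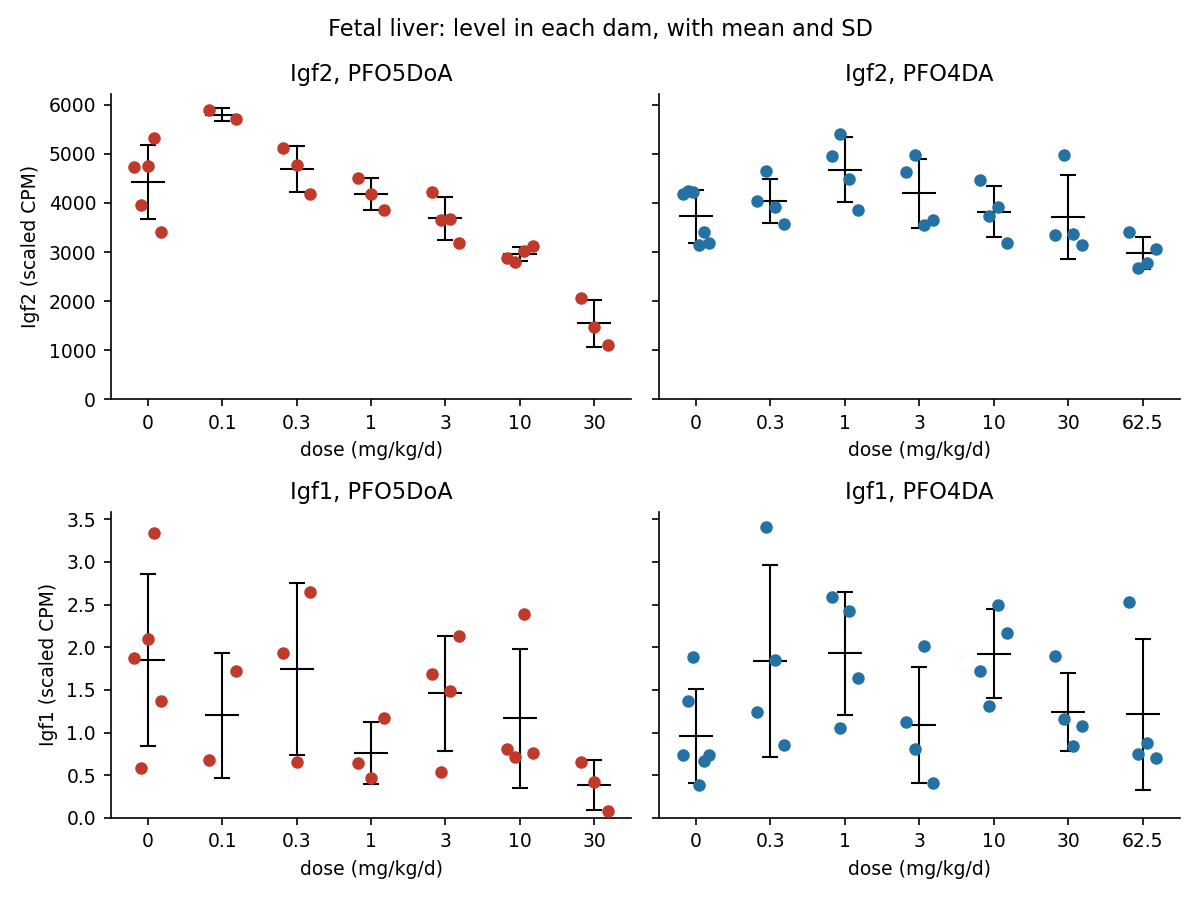
Scaled CPM of Igf2 (top) and Igf1 (bottom) in fetal liver by dose of PFO5DoA (left, red) and PFO4DA (right, blue) in mg/kg/d; each point is the litter of 1 dam, and the bars give the mean and SD. Igf2 descends from a mean of 4433 in the PFO5DoA controls to 1546 at 30 mg/kg/d, whereas the Igf1 points of most doses overlap those of the controls.

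Fetal Igf1, a scarce transcript, was also lower at 30 mg/kg/d PFO5DoA. The controls had 0.589, 1.36, 1.87, 2.10 and 3.34 scaled CPM (mean 1.85 ± 1.01, SD, n = 5), from 6 to 39 counts a library. The 3 litters at 30 mg/kg/d had 0.0809, 0.418 and 0.655, from 1, 5 and 8 counts. Of the 3 litters, 2 (dams 2287 and 2288) were below every control, and that of dam 2285 was just above the lowest control. Igf1 was 4.77-fold lower, or -2.25 on the log2 scale (standard error 0.67; edgeR, adjusted p = 0.0143). Summed over libraries the level was 0.383 scaled CPM at 30 mg/kg/d (14 counts; exact 95% Poisson interval 0.209 to 0.642) and 1.88 in the controls (100 counts; 1.53 to 2.29). These intervals cover counting error only and do not overlap.

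The Igf1 result rests in part on a single litter. Without dam 2288, whose library had 1 Igf1 count, the change at 30 mg/kg/d was -1.76 and not called (edgeR, adjusted p = 0.0933). Dam 2288 also had the lowest fetal Igf2 of all libraries. No lower dose was called. At 1 mg/kg/d the litters had 0.470, 0.649 and 1.17 scaled CPM, with 1 below every control and a change of -1.28 (standard error 0.61, edgeR, adjusted p = 0.268). At 10 mg/kg/d 3 litters had 0.718, 0.763 and 0.803 and the fourth, dam 2283, had 2.39, and the change was -0.68 (edgeR, adjusted p = 0.460), or -1.28 without dam 2283 and -0.34 without control dam 2278. At 3 mg/kg/d the range was 0.537 to 2.13 and at 0.3 mg/kg/d 0.655 to 2.65, both overlapping the controls. The slope was -0.30 (standard error 0.11; edgeR, adjusted p = 0.0361). It lost its call with library totals alone as the scale (-0.25, adjusted p = 0.0721) and without any 1 of 11 of the 22 dams: 2263, 2265, 2268, 2270, 2276, 2277, 2278, 2284, 2285, 2287 and 2288, with slopes of -0.30 to -0.24 and adjusted p-values from 0.0508 to 0.110.

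PFO4DA gave no called change of either gene in fetal liver. edgeR called 0% of the 11172 fetal genes tested at 0.3 and 1 mg/kg/d, 0.304% at 3, 2.64% at 10, 6.43% at 30 and 10.6% at 62.5 mg/kg/d, and 18.9% in the trend. At the 2 lowest doses 1125 and 876 genes had an unadjusted p under 0.05, and DESeq2 called 1 and 4. Igf2 in the 6 controls was 3147 at the lowest, 3795 at the median and 4238 at the highest scaled CPM (mean 3729 ± 536, SD, n = 6). At 62.5 mg/kg/d the litters had 2684, 2768, 3052 and 3413, and 3 of the 4 were below every control. The change was -0.34 with a standard error of 0.15 and an interval of -0.64 to -0.033 (1.96 standard errors on either side; edgeR, adjusted p = 0.186, unadjusted p = 0.0375). The slope was -0.058 (edgeR, adjusted p = 0.0639), and became called with DESeq2 (adjusted p = 0.0491) and without dam 2307 (0.0226) or dam 2308 (0.0293). The control levels of Igf2 differed by run: dams 2293 to 2295 had 4176 to 4238 and dams 2308 to 2310 had 3147 to 3414. Within the second run, which holds all litters at 62.5 mg/kg/d, the change of Igf2 was -0.15 (edgeR, adjusted p = 0.643).

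Below the top dose of PFO4DA fetal Igf2 ranged from 3151 to 5401 scaled CPM and fetal Igf1 from 0.407 to 3.41, and neither gene was called at any dose. Igf2 at 1 mg/kg/d was highest, with 3856, 4480, 4958 and 5401, and 3 of the 4 litters exceeded every control (change 0.33, edgeR, adjusted p = 0.612). Igf1 in the controls was 0.382 at the lowest, 0.735 at the median and 1.88 at the highest. Its changes at 0.3, 1 and 10 mg/kg/d were 0.94, 1.00 and 0.98, each with an unadjusted p under 0.05 (0.0456, 0.0313 and 0.0360) and an adjusted p of 0.488, 0.594 and 0.270 in edgeR. Without dam 2297 the change at 0.3 mg/kg/d was 0.45. At 62.5 mg/kg/d 3 litters had 0.697, 0.748 and 0.876 and the fourth, dam 2319, had 2.53 (change 0.32, edgeR, adjusted p = 0.764). Without dam 2319 the change was -0.33.

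In the maternal liver Igf1 was higher at 30 mg/kg/d PFO5DoA. The controls had 1.78, 11.8, 12.4, 15.9 and 20.1 scaled CPM (mean 12.4 ± 6.79, SD, n = 5), and the lowest of them was dam 2263, with 20 counts. At 30 mg/kg/d the dams had 22.2, 22.6, 24.03 and 27.7 (mean 24.1 ± 2.51, SD, n = 4), all above every control. Igf1 was 1.93-fold higher, or 0.95 on the log2 scale (standard error 0.37; edgeR, adjusted p = 0.0445). Without dam 2263 the controls' lowest level was 11.8, and the change was smaller and still called (0.67, edgeR, adjusted p = 0.0242). The call was lost without dam 2265 (adjusted p = 0.0717), 2280 (0.0706), 2285 (0.0931), 2286 (0.0721), 2287 (0.0655) or 2288 (0.0689), with changes of 0.87 to 0.99. It was also lost with the dam run as a covariate (0.70, edgeR, adjusted p = 0.182) and within the second run (0.55, adjusted p = 0.142), where the 2 controls had 12.4 and 20.1. Against these, 39.8% of the 10611 maternal genes tested were called at 30 mg/kg/d.

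At the lower doses of PFO5DoA maternal Igf1 was not called, though its mean was above that of the controls at each. At 0.3 mg/kg/d the dams had 13.9, 17.9 and 20.1 scaled CPM, and at 1 mg/kg/d they had 12.7, 15.3 and 20.7. At 3 mg/kg/d the values were 11.3, 20.2, 24.5 and 25.7, and 10 mg/kg/d gave 13.9, 18.99, 20.0 and 23.0. At 3 mg/kg/d 3 of the 4 dams exceeded every control, and at 10 mg/kg/d 1 of 4 did. The changes at 0.3, 1, 3 and 10 mg/kg/d were 0.49, 0.39, 0.73 and 0.62 (edgeR, adjusted p from 0.274 to 0.910). Without dam 2263 they were smaller, at 0.21, 0.11, 0.45 and 0.34 (edgeR, adjusted p from 0.390 to 0.998). The slope of 0.15 missed the threshold (edgeR, adjusted p = 0.0515). It passed with DESeq2 (adjusted p = 0.0397), limma (0.0429), RLE scaling (0.0474) and library totals alone (0.00458), and without dam 2263 (slope 0.11, adjusted p = 0.0159), 2269 (0.0430), 2272 (0.0484), 2276 (0.0411), 2278 (0.0372) or 2281 (0.0490). At the other extreme, the adjusted p of the slope in edgeR rose to 0.272 over the settings and to 0.100 with 1 dam left out. edgeR called 0% of maternal genes at 0.3 mg/kg/d, 0.452% at 1, 2.62% at 3, 14.0% at 10 mg/kg/d and 42.2% in the trend. At 0.3 mg/kg/d 561 genes had an unadjusted p under 0.05, and DESeq2 called 6.

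Maternal Igf2 was not called at any dose of PFO5DoA. The controls had 3.84, 4.34, 4.58, 5.86 and 6.63 scaled CPM and the dams at 30 mg/kg/d had 4.06, 5.17, 5.82 and 6.50, so the groups overlapped. The change there was 0.070 (interval -0.41 to 0.55; edgeR, adjusted p = 0.842), and its sign turned without dam 2263 (-0.014) or 2287 (-0.027). At 1 mg/kg/d the dams had 5.48, 7.45 and 8.98, 2 of the 3 above every control, and the change of 0.52 was not called (edgeR, adjusted p = 0.521).

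**Figure D3:**
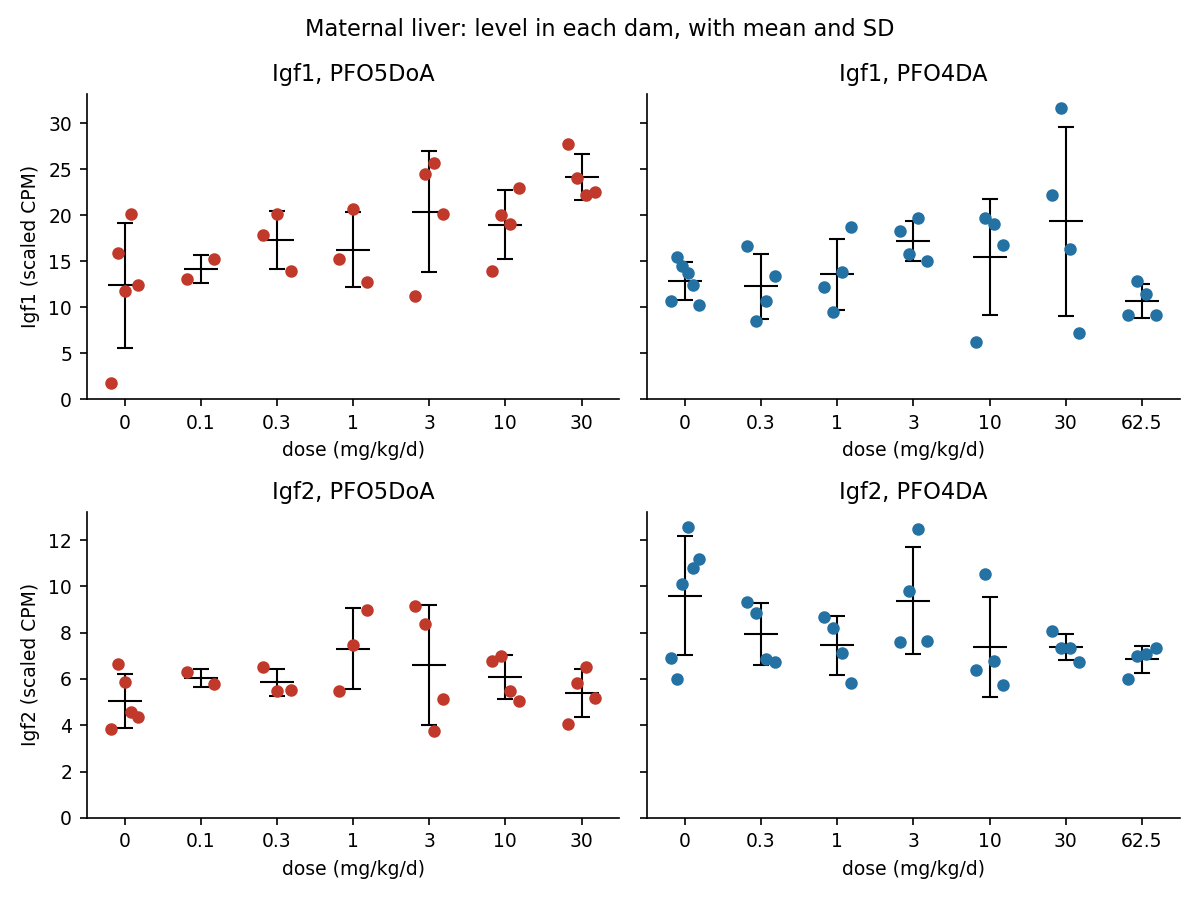
Scaled CPM of Igf1 (top) and Igf2 (bottom) in maternal liver by dose of PFO5DoA (left, red) and PFO4DA (right, blue) in mg/kg/d; each point is 1 dam, and the bars give the mean and SD. The 4 Igf1 points at 30 mg/kg/d PFO5DoA lie at 22.2 to 27.7, above all control points, and the lone low control point at 1.78 is dam 2263.

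PFO4DA gave no called change of either gene in maternal liver. edgeR called 0% of the 10263 maternal genes tested at 0.3, 1 and 3 mg/kg/d, 0.00974% at 10, 0.633% at 30 and 2.46% at 62.5 mg/kg/d, and 2.80% in the trend. At the 3 lowest doses 269, 219 and 286 genes had an unadjusted p under 0.05, and DESeq2 called 4, 1 and 0. Igf1 in the controls was 10.3 at the lowest, 13.1 at the median and 15.5 at the highest scaled CPM. At 30 mg/kg/d it spread from 7.201 to 31.6, with 3 dams above and 1 below the control range (change 0.59, edgeR, adjusted p = 0.701). Without dam 2307, the highest, the change was 0.25. At 62.5 mg/kg/d the dams had 9.18, 9.20, 11.4 and 12.9, and the change was -0.27 (edgeR, adjusted p = 0.748). Dam 2303 at 10 mg/kg/d had 6.24, the lowest maternal Igf1 of the PFO4DA libraries.

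Maternal Igf2 under PFO4DA had log2 fold changes below 0 at every dose, and no dose was called. The nearest to 0 was -0.024 at 3 mg/kg/d, and it turned above 0 without any 1 of 5 dams. The controls had 6.02 at the lowest, 10.5 at the median and 12.6 at the highest scaled CPM. At 62.5 mg/kg/d the dams had 6.01, 6.98, 7.06 and 7.34, within the control range except for the lowest. The change was -0.49 (interval -0.89 to -0.090; edgeR, adjusted p = 0.254, unadjusted p = 0.0225). The controls again differed by run, with 6.02 to 10.1 in dams 2293 to 2295 and 10.8 to 12.6 in dams 2308 to 2310. Within the second run the change at 62.5 mg/kg/d was -0.76 and called (edgeR, adjusted p = 0.0274), and the adjusted p ranged from 0.0274 to 0.496 over all settings. The PFO5DoA controls, at 3.84 to 6.63, lay mostly below the PFO4DA controls.

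The 2 homologues were compared at their shared doses of 0.3, 1, 3, 10 and 30 mg/kg/d, each against its own controls, in 20 interaction tests over 2 genes and 2 stages. Both genes differed in fetal liver at 30 mg/kg/d, and no other of the 20 differences was called. At that dose fetal Igf2 was 1103, 1476 and 2057 scaled CPM under PFO5DoA and 3151, 3342, 3370 and 4978 under PFO4DA, with no overlap. The change under PFO5DoA was lower than that under PFO4DA by a log2 difference of -1.52 (interval -1.98 to -1.05; edgeR, adjusted p = 8.06e-06). Fetal Igf1 was 0.0809, 0.418 and 0.655 under PFO5DoA and 0.843, 1.07, 1.16 and 1.89 under PFO4DA. These scaled levels did not overlap, but the nearest litters, dams 2285 and 2317, each had 8 counts. Without the TMM factor those litters had 0.794 and 0.897 CPM. The control means of fetal Igf1 were 1.85 for PFO5DoA and 0.961 for PFO4DA, and this gap enters each Igf1 difference between the chemicals. The PFO4DA controls spanned 0.382 to 1.88, a range that holds the litters of dams 2285 and 2287. The part of the control gap was not tested. The difference of Igf1 was -2.61 (interval -4.21 to -1.01; edgeR, adjusted p = 0.0248). That call was lost without dam 2278 (-2.24, adjusted p = 0.0613), 2287 (-2.63, 0.0568), 2288 (-2.13, 0.121) or 2306 (-2.34, 0.0603).

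At the other shared doses the fetal differences all had the same sign without a call. Those of Igf2 were -0.050, -0.43, -0.45 and -0.62 from 0.3 to 10 mg/kg/d, with an interval of -1.06 to -0.19 at 10 mg/kg/d (edgeR, adjusted p = 0.108). Those of Igf1 were -1.03, -2.29, -0.51 and -1.67, with an interval of -3.77 to -0.81 at 1 mg/kg/d (edgeR, adjusted p = 0.143). In maternal liver at 30 mg/kg/d the difference was 0.37 for Igf1 (interval -0.57 to 1.30, edgeR, adjusted p = 0.637) and 0.46 for Igf2 (interval -0.15 to 1.07, adjusted p = 0.312). Without dam 2263 that of Igf1 was 0.083 (edgeR, adjusted p = 0.918) and that of Igf2 0.38 (adjusted p = 0.465). The Igf1 value was also moved by leaving out dam 2318 (0.096), 2278 (0.60) or 2307 (0.73). Of the fetal genes tested for this difference edgeR called 0.00852%, 0.707%, 1.56%, 4.07% and 13.6% from the lowest to the highest shared dose, and of the maternal genes 0%, 0.128%, 0.785%, 8.55% and 20.0%. At 0.3 mg/kg/d 710 maternal genes had an unadjusted p under 0.05, and DESeq2 called 1. At 62.5 mg/kg/d only PFO4DA has libraries here.

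**Figure D4:**
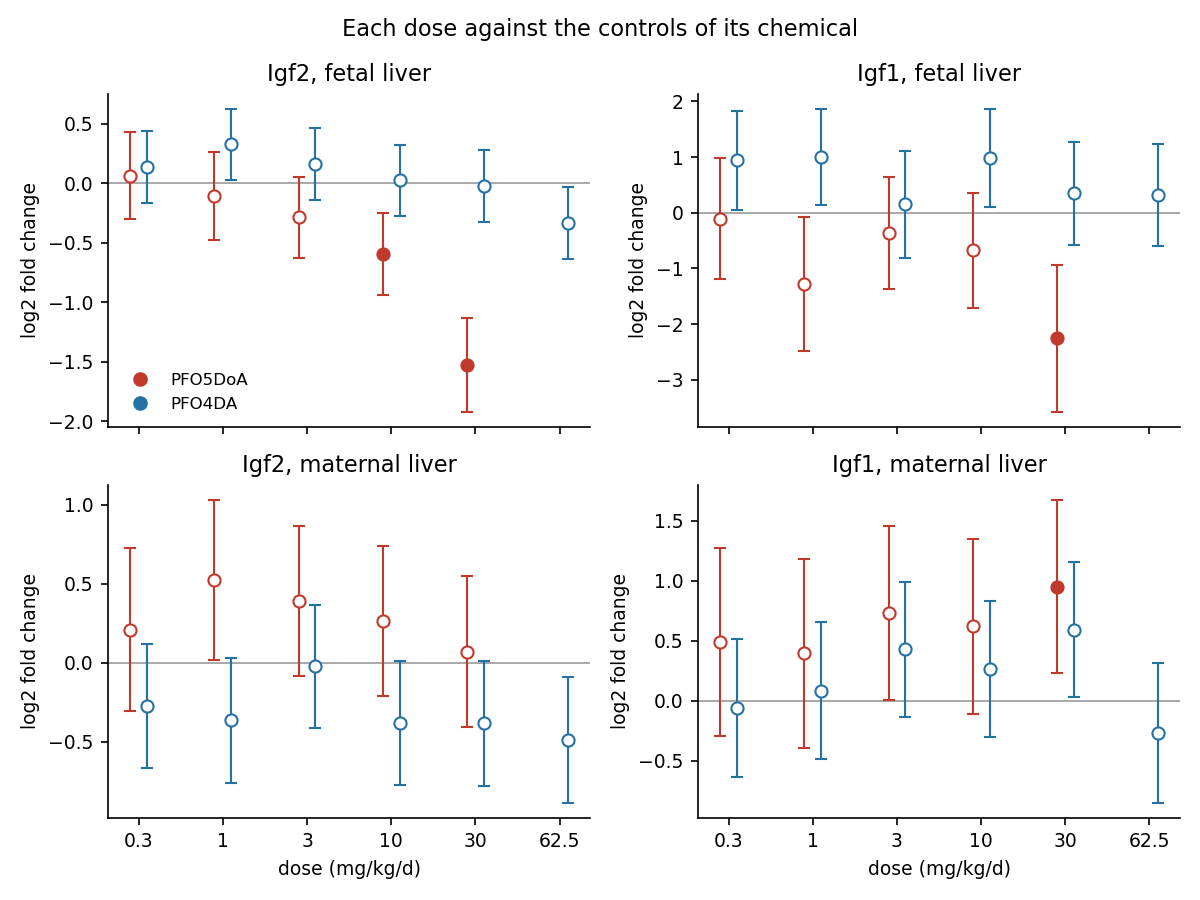
Log2 fold change of Igf2 (left) and Igf1 (right) against the controls of the same chemical in fetal (top) and maternal liver (bottom), by dose in mg/kg/d; red is PFO5DoA and blue PFO4DA, bars span 1.96 standard errors on either side, and filled points passed an adjusted p of 0.05 in edgeR. The filled points are fetal Igf2 at 10 and 30 mg/kg/d, fetal Igf1 at 30 mg/kg/d and maternal Igf1 at 30 mg/kg/d, all under PFO5DoA.

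The fetal and the maternal response to PFO5DoA differed for both genes at 30 mg/kg/d. The test was a stage-by-dose interaction with the dam as a block, in dams with both libraries. For Igf2 the fetal change lay below the maternal change of the same dams by a log2 difference of -1.62 (standard error 0.35; edgeR, adjusted p = 0.00249). For Igf1 the difference was -3.38 (standard error 0.88; edgeR, adjusted p = 0.0132), with Igf1 lower in the fetal and higher in the maternal liver. The call of Igf2 held without any single dam, with differences of -1.999 to -1.368. That of Igf1 was lost without dam 2287 (-3.46, edgeR, adjusted p = 0.0520) or 2288 (-2.91, adjusted p = 0.0756), and was -2.88 and called without dam 2263 (adjusted p = 0.0174). Within the 3 dams at 30 mg/kg/d the maternal level of Igf1 was 36.4, 49.4 and 294 times the fetal level, above the highest control ratio of 34.5, and the fetal level of Igf2 was 203, 245 and 590 times the maternal level. The fetal Igf1 counts behind the first ratios were 8, 5 and 1. Dams 2272 and 2275, at 1 and 3 mg/kg/d PFO5DoA, and dam 2315, at 3 mg/kg/d PFO4DA, also exceeded that control ratio.

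At lower doses of PFO5DoA the stage difference of Igf2 was -0.13, -0.60, -0.60 and -0.86 from 0.3 to 10 mg/kg/d and was not called, with an adjusted p of 0.121 in edgeR at the highest of these doses. For Igf1 it was -0.74, -1.76, -1.16 and -1.51 and was not called either. Under PFO4DA neither gene differed between stages beyond the threshold. At 62.5 mg/kg/d the difference was 0.12 for Igf2 (interval -0.38 to 0.63) and 0.56 for Igf1 (interval -0.50 to 1.62). The first turned to -0.017 without dam 2308 and the second to -0.072 without dam 2319. edgeR called 0%, 0.117%, 1.19%, 4.77% and 15.0% of the 11969 genes tested for PFO5DoA from 0.3 to 30 mg/kg/d and 0%, 0%, 0.00861%, 0.500%, 1.02% and 2.81% of the 11610 genes tested for PFO4DA from 0.3 to 62.5 mg/kg/d. Where no gene was called, 364 genes for PFO5DoA at 0.3 mg/kg/d and 1123 and 652 for PFO4DA at 0.3 and 1 mg/kg/d had an unadjusted p under 0.05.

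In the order of group means, fetal Igf2 was lowest at 30 mg/kg/d PFO5DoA (1546 scaled CPM). Next came PFO5DoA at 10 mg/kg/d (2959) and PFO4DA at 62.5 mg/kg/d (2979), and the highest mean was that of 0.1 mg/kg/d PFO5DoA (5797). Steps to the next group larger than the SD of either neighbour occurred above 30 mg/kg/d PFO5DoA, above 62.5 mg/kg/d PFO4DA and below 0.1 mg/kg/d PFO5DoA, and the other neighbours in that order did not differ beyond their spread. Fetal Igf1 ran from 0.385 at 30 mg/kg/d PFO5DoA to 1.93 at 1 mg/kg/d PFO4DA, and only the lowest step, of 1.04 SD, exceeded the spread. Maternal Igf1 ran from 10.7 at 62.5 mg/kg/d PFO4DA to 24.1 at 30 mg/kg/d PFO5DoA, and maternal Igf2 from 5.05 in the PFO5DoA controls to 9.60 in the PFO4DA controls. In neither did any neighbours differ beyond their spread.

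The 2 genes varied together in the fetal livers of undosed animals. Over the 11 control dams of both chemicals, with log2(scaled CPM + 1) taken relative to the control mean of its own table, fetal Igf1 and fetal Igf2 had a Pearson r of 0.757 (permutation p = 0.00644, adjusted p = 0.0193 over 3 relations) and a Spearman rho of 0.882 (permutation p = 0.00068, adjusted p = 0.00204). Without the 2 dams farthest from the median of Igf1 r was 0.637. In the 6 PFO4DA controls alone r was 0.772 (exact permutation p = 0.0278), and with the run means removed from all 11 controls it was 0.794. The run means were not removed in the 6 alone. There fetal Igf1 was 0.738 to 1.88 scaled CPM in the first run and 0.382 to 0.731 in the second. Fetal Igf2 also split by run, so this permutation p does not separate litters from runs. Both values of a pair come from 1 library and share its scale and depth. Maternal Igf1 and fetal Igf2 showed no relation past the threshold (r = -0.023, permutation p = 0.972, adjusted p = 0.972; rho = 0.209, permutation p = 0.538; r = -0.062 without the 2 farthest dams). In the 6 PFO4DA controls alone r was 0.368 (exact permutation p = 0.375), and with the run means removed from all 11 controls it was -0.029. Maternal and fetal Igf2 had an r of -0.51 (permutation p = 0.110, adjusted p = 0.164; rho = -0.54, permutation p = 0.0939; r = -0.32 without the 2 farthest dams). In the 6 PFO4DA controls, where both levels split by run, r was -0.81 (exact permutation p = 0.0194). With the run means removed from all 11 controls it was -0.16.

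Across all fetal libraries the pattern of Igf2 was shared closely by other genes. Over 54 libraries, with each value relative to the controls of its table, the 5 genes most like Igf2 among 11101 had Pearson r from 0.881 to 0.931, led by ENSRNOG00000000850 (0.931) and ENSRNOG00000011413 (0.918), which the tables do not name. Igf1 had an r of 0.550 with Igf2 and ranked 935th by likeness. The 5 genes most like fetal Igf1 had r from 0.784 to 0.798. In the 55 maternal libraries the 5 genes most like Igf1 had r from 0.876 to 0.915, and from 0.840 to 0.888 without dam 2263. Those most like maternal Igf2 had r of only 0.583 to 0.645, and Igf1 and Igf2 had an r of 0.343 there. All libraries of a dose share their treatment, so these values are descriptions over libraries and carry no test.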

How the data were processed

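Maternal and fetal liver RNA was assayed with a rat TempO-Seq panel of 22253 probes for 20924 genes, per the labels' protocols. The authors deposited 1 table of estimated counts per chemical, not normalized, with decimals in 12.2% (PFO5DoA) and 11.8% (PFO4DA) of the values. Per the submitters' processing notes the build was mRatBN7.2 and the tools were STAR 2.7.8a, Partek, R and DESeq2, with no step assigned to each. The deposited estimated counts were rounded here. Tests used edgeR 4.0.16 in R 4.3.3 (filterByExpr by dose, TMM, estimateDisp, robust glmQLFit, glmQLFTest) on each chemical and stage with all doses in 1 fit, without the 2 dams at 0.1 mg/kg/d, and a call was an adjusted p under 0.05 over all genes tested. The trend used log2(dose + 1). Standard errors are the log2 fold change over the root of the F statistic. The steps were tested on simulated data. Alternatives used DESeq2 1.42.0, limma 3.58.1, other scalings, filters, blocks and left-out libraries; scaling by library totals alone, fits within a run and leaving out dams for the stage differences were chosen after seeing the data. The members and lists were chosen with earlier results of these data known. The genes named are the 2 members and those most like them by Pearson r. Lists of other genes of the growth factor pathway and of cell type markers were not analysed, because the reference tables name 0 of the 20311 IDs, so neither the tissue label nor other cell types were checked by markers. All columns were mapped to dams and 0 were left over.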

Additional observations from a re-analysis of the deposited data

Results flagged for a closer look

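In 42 sets of 4 to 6 libraries (1 gene, stage, chemical and dose each), 3 had a library far from the others in the level of a gene, where chance gives about 1 in 20. Fetal Igf2 at 30 mg/kg/d PFO4DA was 4978 scaled CPM in dam 2307, against 3151 to 3370 in the other 3 litters. Fetal Igf1 at 62.5 mg/kg/d PFO4DA was 2.53 scaled CPM (27 counts) in dam 2319, against 0.697 to 0.876 in the others. Fetal Igf1 at 10 mg/kg/d PFO5DoA was 2.39 scaled CPM (29 counts) in dam 2283, against 0.718 to 0.803.

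Tests of a difference between responses passed the threshold 4 times, each at 30 mg/kg/d as described above. The fetal change under PFO5DoA lay below that under PFO4DA by -1.52 for Igf2 and -2.61 for Igf1 on the log2 scale. The fetal change under PFO5DoA lay below the maternal change by -1.62 for Igf2 and -3.38 for Igf1.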

How the results depend on the processing

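The fall of fetal Igf2 at 30 mg/kg/d and in the trend of PFO5DoA, its difference from PFO4DA at 30 mg/kg/d and its stage difference at 30 mg/kg/d kept their direction and call in every setting run and without any single dam. For fetal Igf1 at 30 mg/kg/d PFO5DoA, the change, its difference from PFO4DA and its stage difference kept theirs in every other setting and lost the call only when certain single dams were left out. The differences between chemicals and between stages were not fitted with dam run as a covariate or within a run. Maternal Igf1 at 30 mg/kg/d PFO5DoA lost its call without the filter on low counts (0.95), with that dose and its controls alone (0.98), with the replicate number as a block (1.00), with dam run as a covariate (0.70), without dam 2286 (0.95) and within the second run (0.55). Its trend gained a call with DESeq2 (0.15), limma (0.19), RLE scaling (0.15), library totals alone (0.21), the 0.1 mg/kg/d dams kept (0.15) and the deeper library of dam 2279 kept (0.15). The other settings left that trend uncalled, with an adjusted p of up to 0.272 in edgeR. Fetal Igf2 at 10 mg/kg/d PFO5DoA lost its call with library totals alone (-0.41), with that dose alone (-0.58) and within the second run (-0.50), and the trend of fetal Igf1 with library totals alone (-0.25). Fetal Igf2 in the trend of PFO4DA gained a call with DESeq2 (-0.055) and the replicate block (-0.070), and maternal Igf2 at 62.5 mg/kg/d PFO4DA within the second run (-0.76). The causes were not tested.

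Results near 0 that were not called changed sign. With library totals alone these were maternal Igf2 in the PFO5DoA trend (0.058), fetal Igf2 under PFO5DoA at 0.3 mg/kg/d (-0.098) and under PFO4DA at 30 mg/kg/d (0.042), and fetal Igf1 in the PFO4DA trend (0.013). With dam run as a covariate they were maternal Igf2 in the PFO5DoA trend (0.082), fetal Igf1 at 0.3 mg/kg/d PFO5DoA (0.26) and in the PFO4DA trend (0.0072) and fetal Igf2 at 10 mg/kg/d PFO4DA (-0.050). With the replicate block they were maternal Igf2 at 3 mg/kg/d PFO4DA (0.065), fetal Igf1 under PFO5DoA at 0.3 mg/kg/d (0.16) and under PFO4DA at 3 mg/kg/d (-0.029), and fetal Igf2 under PFO5DoA at 0.3 mg/kg/d (-0.0055) and under PFO4DA at 10 mg/kg/d (-0.057). Fetal Igf2 at 30 mg/kg/d PFO4DA was 0.0010 without the filter and 0.0043 with that dose alone.

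Leaving out 1 dam at a time gave maternal Igf1 at 30 mg/kg/d PFO5DoA from 0.67 to 1.18, its trend from 0.11 to 0.17, fetal Igf2 at 10 mg/kg/d PFO5DoA from -0.66 to -0.51, fetal Igf1 at 30 mg/kg/d PFO5DoA from -2.85 to -1.76 and in the trend from -0.38 to -0.24, the chemical difference of fetal Igf1 at 30 mg/kg/d from -3.19 to -2.13 the stage difference of Igf1 at 30 mg/kg/d PFO5DoA from -3.85 to -2.88 and fetal Igf2 in the PFO4DA trend from -0.067 to -0.044. Signs changed for maternal Igf2 under PFO5DoA at 30 mg/kg/d (-0.027 to 0.19) and in the trend (-0.022 to 0.016), maternal Igf1 under PFO4DA at 0.3 (-0.25 to 0.078) and 1 mg/kg/d (-0.11 to 0.22) and in the trend (-0.0057 to 0.050), maternal Igf2 at 3 mg/kg/d PFO4DA (-0.21 to 0.066), fetal PFO5DoA at 0.3 mg/kg/d for Igf1 (-0.55 to 0.29) and Igf2 (-0.019 to 0.14), fetal Igf1 under PFO4DA at 3 (-0.33 to 0.46) and 62.5 mg/kg/d (-0.33 to 0.65) and in the trend (-0.055 to 0.017), and fetal Igf2 under PFO4DA at 10 (-0.049 to 0.11) and 30 mg/kg/d (-0.18 to 0.077), and the stage differences at 62.5 mg/kg/d PFO4DA of Igf1 (-0.072 to 0.86) and Igf2 (-0.017 to 0.28).

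Replicate numbers in the labels are shared by groups. The median correlation of deviations between same-numbered libraries of different doses was -0.028 to 0.020 over the 4 tables of chemical and stage. For differently numbered pairs it was -0.0088 to 0.0070. Single same-numbered pairs reached 0.625 in fetal PFO4DA libraries, and a shared deviation of single pairs was not tested. Same-numbered pairs above 0.1 made up 12 of 51 in maternal and 14 of 48 in fetal PFO5DoA libraries. In PFO4DA they were 8 of 84 in maternal and 22 of 84 in fetal libraries. The labels give such samples only the number in common, but those numbered 4 and above all lie in the second run of dams. The replicate block moved the genes called at 30 mg/kg/d PFO5DoA from 3443 to 4061 in fetal and from 4220 to 3922 in maternal liver, and at 62.5 mg/kg/d PFO4DA from 1189 to 1034 and from 252 to 172. The stage difference of Igf1 under PFO5DoA became called without the filter at 1 (-1.73) and 10 mg/kg/d (-1.48). With its controls alone, 3 mg/kg/d PFO4DA gave no value for fetal Igf1, which the filter removed. Depth limits fetal Igf1, with at most 39 counts a library.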
